A study of Homo sapiens with 12 samples.

Results

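AXL, TYRO3 and MERTK make up the TAM family of receptor tyrosine kinases, and GAS6 and PROS1 (protein S) encode their main ligands. The 5 genes were taken by symbol from the 60623 genes of the count table, and all 5 passed the filter on low counts in each of the 6 comparisons between lines. They were selected on the CPM of AXL, whose differences between these samples were already known, with its family and ligands added by name, so the levels and differences of the 5 genes are a description, and nothing is read from whether they passed a test. RNA was sequenced from A549, a human lung adenocarcinoma cell line, infected with lentivirus and selected with hygromycin to give 4 stable lines with 3 biological replicates each, 12 libraries in all. The V line carried the empty vector pLV-EF1a-IRES-Hygro. The WT line carried wild-type HA-AHR, the SA line HA-AHR with S489A (a site that cannot be phosphorylated) and the SD line HA-AHR with S489D (a phosphomimetic). AHR, the aryl hydrocarbon receptor, is a ligand-activated transcription factor, all lines kept their own AHR gene, and the study asked how phosphorylation of S489 bears on metastasis. Each construct was carried by 1 line, so what a construct did and how its line otherwise differed cannot be told apart. The labels call the libraries biological replicates without naming separate cultures, so every p-value measures only the spread between these libraries.

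TAM receptors share an extracellular part of immunoglobulin-like and fibronectin type III domains and an intracellular tyrosine kinase. GAS6 and protein S are secreted proteins whose Gla domain is carboxylated with the help of vitamin K, which lets them hold phosphatidylserine on the surface of dying cells while the other end engages the receptor. GAS6 activates all TAM receptors, and protein S activates TYRO3 and MERTK. In macrophages the system serves the clearance of dying cells and damps inflammation, and in lung carcinoma cells AXL is known for its association with mesenchymal traits, migration and resistance to EGFR inhibitors.

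The libraries held between 7844039 and 11765576 expected counts, and 3 counts, the limit for a gene with no count, corresponded to 0.255 to 0.382 CPM (counts scaled to the TMM-normalized library size), which covers counting error only. AHR was checked first. Since reads of AHR are shared with ENSG00000283321, a second gene annotated at the same locus, both were summed. The sum was 469 ± 16.4 CPM for WT (SD, n = 3), 393 ± 18.9 for SA and 296 ± 8.16 for SD, beside 69.1 ± 4.51 CPM for V. AHR alone had 266 ± 28.3, 223 ± 5.89 and 210 ± 9.14 CPM in WT, SA and SD, and the SA and SD libraries overlapped. ENSG00000283321 had 203 ± 11.9, 170 ± 17.6 and 85.5 ± 14.2 CPM in these lines and 0 in V. Most of the difference between SA and SD in the sum thus came from ENSG00000283321. The 3 lines labelled with an AHR construct therefore had more AHR RNA than V, but in unequal amounts. Of the epithelial markers, KRT8 (2360 to 3330 CPM) and CDH1 (103 to 179 CPM) were abundant, while EPCAM reached at most 1.75 CPM and KRT19 at most 0.536 CPM. The macrophage markers CD163, CSF1R and TYROBP, the endothelial markers VWF, KDR and TEK and the fibroblast markers COL1A2 and DCN were at 0 in all 12 libraries. Of the same lists, CD14 (11.4 to 22.4 CPM), ITGAM (1.72 to 4.32 CPM) and COL1A1 (5.34 to 13.1 CPM) were detected in every library, and the remaining markers reached at most 0.98 CPM.

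The start of AXL is shown because AXL was the member whose RNA differed most between lines. RefSeq lists 2 start sites for AXL, and the GRCh38.p14 windows of 300 bases, from 250 bases before to 50 bases after each start, are printed 5′ to 3′ on the plus strand with capitals for the AHR core (GCGTG, or CACGC on the other strand), the GC box (GGGCGG or CCGCCC) and the AP-1 element (TGANTCA). The first window lies at chr19:41218973-41219272 and holds the start of the gene, and the second lies at chr19:41226505-41226804, inside the gene.
AXL, first start: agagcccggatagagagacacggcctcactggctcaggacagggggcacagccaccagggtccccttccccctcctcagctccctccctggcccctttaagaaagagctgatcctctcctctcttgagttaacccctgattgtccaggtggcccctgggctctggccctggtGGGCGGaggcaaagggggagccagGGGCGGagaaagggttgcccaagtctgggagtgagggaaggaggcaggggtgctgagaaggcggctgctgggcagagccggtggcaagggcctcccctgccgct
AXL, second start: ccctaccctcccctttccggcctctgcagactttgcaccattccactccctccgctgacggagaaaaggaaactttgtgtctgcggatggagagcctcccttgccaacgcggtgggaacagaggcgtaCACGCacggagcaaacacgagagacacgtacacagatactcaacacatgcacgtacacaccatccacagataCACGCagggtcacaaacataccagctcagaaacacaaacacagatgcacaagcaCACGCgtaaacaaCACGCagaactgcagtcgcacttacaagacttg
The first window held 2 GC boxes and no AHR core or AP-1 element. At least 2 GC boxes were present in 26.7% of the 35116 promoter windows of this length. The second window held 4 AHR cores and no GC box or AP-1 element. At least 1 AHR core was present in 36.5% of all windows and at least 4 in 1.63%. The TEAD element (GGAATG or CATTCC), present in 14% of windows, occurred 1 time in the second AXL window and not in the first, and the AP-1 element occurred in 7.71% of windows. Among the windows of the other members, the AHR core occurred 1 time in that of GAS6 and 1 time in one of the pair of TYRO3 windows, and not in those of MERTK and PROS1. A match of letters is not a bound site, and counts per gene do not tell which start was used.

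AXL (ENSG00000167601; GRCh38 chromosome 19, 41219223 to 41261766, plus strand, 22 exons after merging of transcripts) was the most abundant member in every line. Its level was 285, 295 and 284 CPM in the V libraries. It was 482, 438 and 442 CPM in WT and 445, 450 and 460 CPM in SA. In SD it was 384, 370 and 392 CPM. Every library with an AHR construct was above every V library, every SD library was below every WT and SA library, and the WT and SA libraries overlapped. The mean level was 288 ± 5.78 CPM (SD, n = 3) for V, 382 ± 11.1 for SD, 452 ± 7.58 for SA and 454 ± 24 for WT. In bulk RNA, a difference in the number of cells with AXL and one in AXL per cell cannot be told apart.

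Relative to V, AXL was 1.57-fold higher in WT (log2 fold change 0.66, SE 0.0455), 1.57-fold higher in SA (0.65, SE 0.0464) and 1.33-fold higher in SD (0.41, SE 0.0523). These 3 comparisons share the V libraries. The SD line had less AXL than WT (log2 fold change -0.25, SE 0.0544) and than SA by nearly as much (-0.24, SE 0.0533), whereas the difference between WT and SA was smaller than its error (0.0056, SE 0.0477). The order of AXL levels was thus V below SD below WT and SA, with the last pair not separated by their spread. The plot of levels by library shows these steps.

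**Figure D1:**
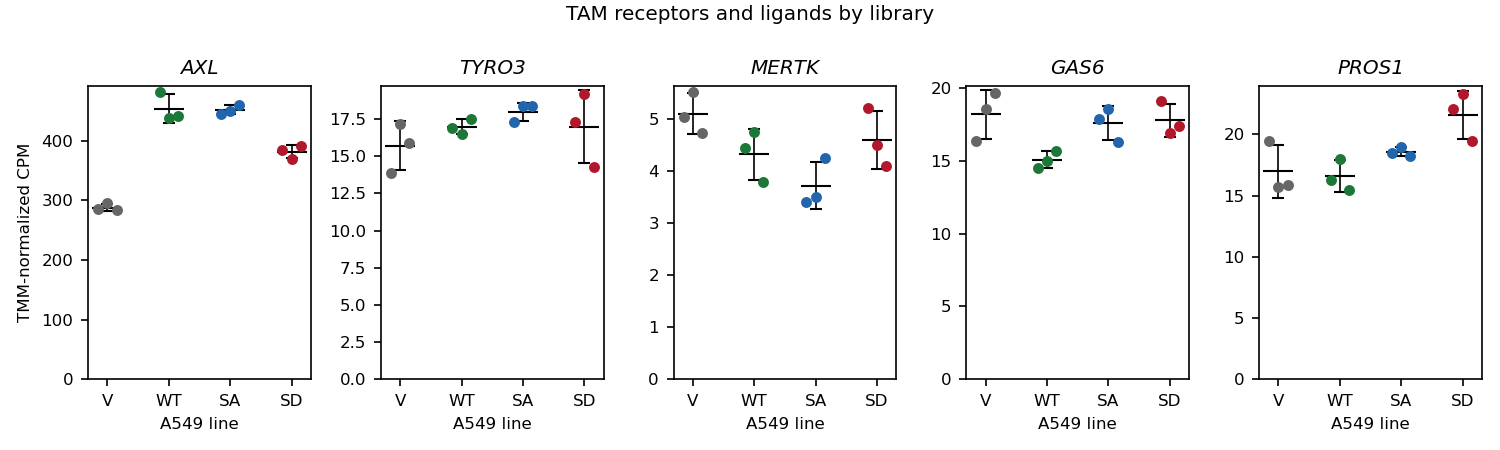
TMM-normalized CPM (y axis, from 0, with its own scale for each gene) of the 5 TAM genes in the V, WT, SA and SD lines of A549 (x axis). Points are libraries, and bars give the mean and SD of 3 libraries. AXL lies between 284 and 295 CPM in V and at 370 CPM or more in all others, while the libraries of the other genes mostly overlap between lines.

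In counts of members past an adjusted p of 0.05 (edgeR, adjusted over all genes tested), AXL alone passed in WT against V, SA against V, SD against V and SD against WT, 1 of 5 members in each. The share of all tested genes that passed was 5.24%, 7.17%, 5.41% and 0.708% in these comparisons. No member passed in SD against SA (0.22% of all genes) or WT against SA (0.0803%), where 1 and 0 members had an unadjusted p under 0.05. Because AXL was picked with such results known, nothing is read from these counts or from how they move between fits. In SD against WT the count fell to 0 when WT replicate 1 (log2 fold change -0.20), WT replicate 2 (-0.28), WT replicate 3 (-0.27) or SD replicate 2 (-0.23) was left out. In SD against SA, AXL passed with DESeq2, with all genes of at least 1 count tested, with all 12 libraries in one fit and with the replicate number as a block (log2 fold change -0.25 to -0.24).

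Several measures also differed between lines, not all in the order of AXL, and their part in the difference of AXL was not tested. The summed AHR level given above was also lowest in V and was lower in SD than in WT and SA, though AHR without ENSG00000283321 overlapped between SD and SA. The 6 epithelial markers summed to between 7620 and 8020 CPM in the V libraries, and to 6420 to 6520 CPM for WT, 6220 to 6380 for SA and 5770 to 6060 for SD. In this sum V and the AHR lines did not overlap, and SD was furthest from V, unlike for AXL. Most of it was keratin RNA, with V means of 3270, 2730 and 1660 CPM for KRT8, KRT18 and KRT7. The mean of CDH1 was instead nearest to V in SD, at 170 CPM in V, 126 in SD and 112 in WT and in SA. The adherens junction gene CDH1 was lower than in V by 0.60 (log2) in WT (log2 fold change -0.60, adjusted p = 7.74e-09), in SA (-0.60, 1.18e-07) and in SD (-0.43, 3.84e-05). The 6 macrophage markers summed to 13.4 to 14.7 CPM in V, 17.9 to 18.9 in WT, 15.9 to 19.8 in SA and 18.2 to 24.5 in SD. V was below the other lines, and SD reached highest. Most of this sum was CD14, a co-receptor for bacterial lipopolysaccharide, which rose in SD against V (log2 fold change 0.60, adjusted p = 0.00947), a call lost without V replicate 3 (0.061) or SD replicate 3 (0.112). The 6 fibroblast markers summed to 10.1 to 13.7 CPM in V, 5.97 to 7.57 in WT, 7.51 to 8.39 in SA and 7.61 to 10.2 in SD, so SD overlapped with V. Most of that sum was COL1A1, a chain of type I collagen, which fell in WT (log2 fold change -0.79, adjusted p = 0.00649) and SA (-0.60, 0.0278) against V. The WT call was lost without V replicate 1 (0.0728), and the SA call without V replicate 1, V replicate 2, SA replicate 1 or SA replicate 2 (0.0566 to 0.181).

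TYRO3 (ENSG00000092445; chromosome 15, 41557675 to 41583589, plus strand), the receptor best known in brain, had between 13.9 and 19.2 CPM. Its libraries had 13.9, 17.2 and 15.9 CPM in V, 16.9, 16.5 and 17.5 in WT, 17.3, 18.4 and 18.4 in SA and 17.3, 19.2 and 14.3 in SD. Only the SA libraries were all above those of V (log2 fold change 0.20, SE 0.122), and by a narrow margin. The log2 fold changes in WT (0.11, SE 0.125) and SD (0.11, SE 0.136) against V were smaller than their errors.

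MERTK (ENSG00000153208; chromosome 2, 111898607 to 112029561, plus strand), the receptor that macrophages use to clear dying cells, was the least abundant member. Its level was 5.04, 5.52 and 4.73 CPM in V, 4.45, 4.74 and 3.79 in WT, 3.41, 3.5 and 4.24 in SA and 5.21, 4.5 and 4.1 in SD. The SA libraries were all below those of V (log2 fold change -0.45, SE 0.24). The WT and SD libraries overlapped with V (-0.23, SE 0.237 and -0.15, SE 0.228). The direction for MERTK in SA was the opposite of that for AXL, and the order of MERTK means was V (5.1 ± 0.395 CPM), SD (4.6 ± 0.56), WT (4.32 ± 0.489) and SA (3.72 ± 0.456), with neighbours in that order overlapping.

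GAS6 (ENSG00000183087; chromosome 13, 113820549 to 113864076, minus strand), the ligand of highest affinity for AXL, had 16.4, 18.6 and 19.7 CPM in V and 14.5, 15 and 15.7 in WT. It had 17.9, 18.6 and 16.3 CPM in SA and 19.1, 16.9 and 17.4 in SD. The WT libraries were all below those of the other 3 lines, which overlapped with one another. The log2 fold change of WT was -0.27 (SE 0.123) against V and -0.23 (SE 0.119) against SA, and SD against WT gave 0.24 (SE 0.122). The opposite-strand gene GAS6-AS1 shares 421 exon bases with GAS6 and had more counts than it in all 12 libraries. Whether the libraries kept strand is not given in the sources used here, so reads from the shared part cannot be told apart. GAS6-AS1 was lower than in V in WT by 0.54 (log2 fold change -0.54, SE 0.0897, adjusted p = 1.81e-04) and in SA (-0.39, SE 0.106, adjusted p = 0.0227). The SA call was lost without V replicate 1 (adjusted p = 0.133), SA replicate 2 (0.14) or SA replicate 3 (0.176) and with DESeq2 (0.0511).

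PROS1 (ENSG00000184500; chromosome 3, 93873033 to 93980003, minus strand), which encodes the anticoagulant protein S, was the one member with its highest level in SD. It had 19.5, 15.7 and 15.9 CPM in V, 16.3, 18 and 15.5 in WT, 18.5, 19.0 and 18.2 in SA and 22.1, 23.3 and 19.5 in SD. The SD libraries were all above those of WT (log2 fold change 0.38, SE 0.119) and SA (0.22, SE 0.111) and overlapped with V (0.34, SE 0.122) through V replicate 1 and SD replicate 3. The SD libraries thus held less AXL and more PROS1 than the WT libraries, with AXL at -0.25 and PROS1 at 0.38 on the log2 scale. PROS1 did not pass in SD against WT (edgeR, adjusted p = 0.182). The PROS1 pseudogene PROS2P had 0 counts in all 12 libraries. The plot of differences between lines places the 5 genes on 1 scale.

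**Figure D2:**
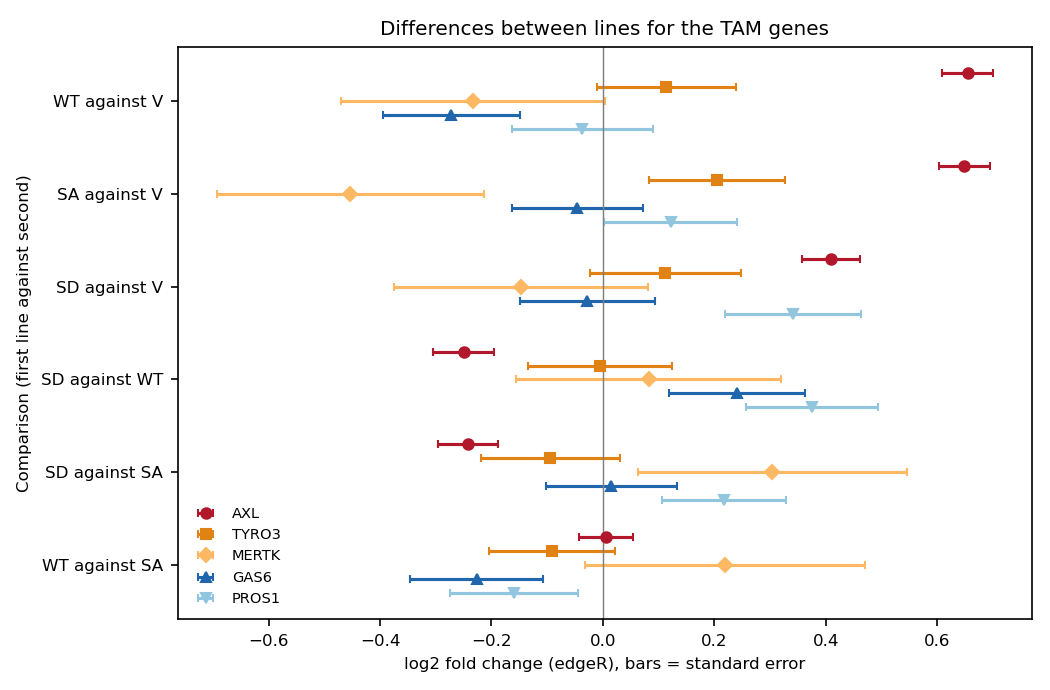
Log2 fold change from edgeR (x axis) of the 5 TAM genes in each of the 6 comparisons between lines (y axis, first line against second). Points are estimates and bars the standard error. AXL stands at 0.41 to 0.66 in the 3 comparisons against V, and the other genes lie between -0.45 and 0.38 with wider errors.

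Libraries of the pair compared did not overlap for 2 members in WT against V (AXL above, GAS6 below), where 21.9% of all tested genes did not overlap, and for 3 members in SA against V (AXL and TYRO3 above, MERTK below), where 23.8% did not. In SD against V there was 1 (AXL above), beside 21.4% of all genes. There were 3 in SD against WT (GAS6 and PROS1 above, AXL below, 16% of all genes), 2 in SD against SA (PROS1 above, AXL below, 13.7%) and 2 in WT against SA (GAS6 and PROS1 below, 12.8%). Since AXL entered the list with its differences known, these counts are a description.

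Levels of different genes were compared per length, as RPKM (CPM per 1000 bases of the merged exons). Mean AXL was 56.1 RPKM for V, 74.3 for SD, 88.0 for SA and 88.4 for WT. TYRO3 stayed between 1.45 and 1.67 RPKM and MERTK between 0.9 and 1.23 in the means of the lines. AXL therefore made up 95.4% ± 0.273 of the summed RPKM of the 3 receptors for V (SD, n = 3) and 97.1% ± 0.151, 97.2% ± 0.115 and 96.5% ± 0.475 for WT, SA and SD. With the length of the canonical transcript in place of the merged exons, a choice made after the data were seen, the shares were 94.9% for V, 96.74% for WT, 96.75% for SA and 96.06% for SD.

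The ligands were far below AXL on the same scale. In the order V, WT, SA, SD, GAS6 had mean levels of 3.03, 2.5, 2.93 and 2.96 RPKM, and PROS1 3.23, 3.15, 3.52 and 4.11 RPKM. The summed receptor level was 9.4 ± 0.476 times the summed ligand level for V, 10.9 ± 0.839 times for SD, 14.1 ± 0.814 times for SA and 16.2 ± 1.36 times for WT. This ratio lay between 9.04 and 9.94 in the V libraries and between 10.4 and 11.9 in the SD libraries, so these lines did not overlap. It lay between 13.5 and 17.6 in the WT and SA libraries. As AXL makes up nearly all of the receptor sum, the ratio repeats the order of AXL with the ligand levels added. Its size depends on the length used. The canonical transcript has 2508 bases for GAS6 (6015 in the merged exons) and 3372 for PROS1 (5270), but 4717 for AXL (5134). Canonical lengths would thus raise the ligands more than AXL and lower the ratio, which was not computed with them.

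Set among 58 receptor tyrosine kinases, of which 23 had a mean of at least 1 RPKM, AXL had the highest mean over the 12 libraries (76.7 RPKM). It was followed by EPHA2, an ephrin receptor (54.2 RPKM), MET, the receptor of hepatocyte growth factor (46.3), IGF1R, the receptor of insulin-like growth factor (25.2), and EGFR (22.7). In V, AXL (56.1 ± 1.13 RPKM) and EPHA2 (56.2 ± 5.37) did not differ beyond their spread, and in WT, SA and SD AXL ranked first. TYRO3 ranked 20 (1.57 RPKM) and MERTK 23 (1.07 RPKM). The order depends on the lengths used, with 5134 bases for AXL, 13941 for IGF1R and 15941 for EGFR. In CPM, AXL still had the highest mean over the 12 libraries (394). In V, however, IGF1R (369 CPM), EGFR (352) and MET (301) were above AXL (288).

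**Figure D3:**
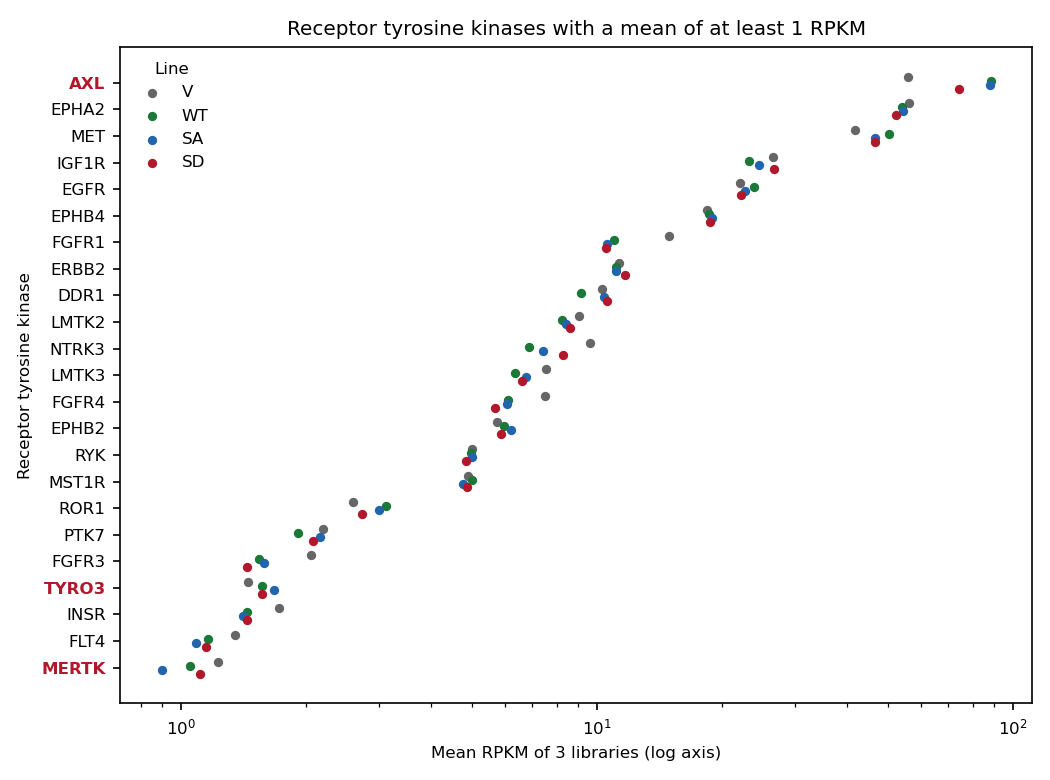
Mean RPKM of 3 libraries (x axis, log scale) of the 23 receptor tyrosine kinases with a mean of at least 1 RPKM over 12 libraries (y axis, ordered by that mean), with 1 point for each line. AXL moves from 56.1 RPKM in V to 88.4 in WT, while the TAM receptors TYRO3 and MERTK (names in red) lie at the low end.

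Genes that act before and after the TAM receptors were taken from 6 lists of 60 genes in all. In WT against V, 3 of 58 tested genes rose and 2 fell. In SA against V, 6 of 59 rose and 2 fell, and in SD against V 7 of 58 rose and 1 fell. The share of all tested genes that passed was 5.24%, 7.17% and 5.41%. The median log2 fold change over the lists was 0.0158, 0.0246 and 0.0471, beside 0.0018, -0.00242 and 0.00301 over all genes tested. In SD against WT 2 of 58 rose and 1 fell, beside 0.708% of all genes. By edgeR none of 58 passed in SD against SA and none of 59 in WT against SA, beside 0.22% and 0.0803% of all genes. An unadjusted p under 0.05 was found for 7 and 3 of them. The share of all genes with such a p was not computed, so nothing is read from the last counts. The lists and the plot of list genes follow the order of the pathway, and all folds named are log2.

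Upstream of the receptors, no gene passed in any of the 6 comparisons among the other ligands (LGALS3, TUB and TULP1), the genes that carboxylate and cut the ligands (GGCX, VKORC1, VKORC1L1 and FURIN) or those that expose or hide phosphatidylserine (ANO6, XKR8, PLSCR1, ATP11A and TMEM30A). GGCX, the carboxylase that makes the Gla residues of GAS6 and protein S, had 65.1 ± 4.63 CPM in V and 76.1 ± 10.3 in SD (0.22, adjusted p = 0.131). ANO6, a scramblase that exposes phosphatidylserine, had mean levels of 117 to 120 CPM in the 4 lines. LGALS3, which encodes galectin-3, had 27.6 ± 1.71 CPM in V and 32.9 ± 2.07 in SD (0.26, adjusted p = 0.12). TULP1 was at 0 in all libraries but V replicate 1.

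Of the 10 genes that shed the receptors or cut them in the membrane, the sheddases ADAM10 (226 to 241 CPM in the means) and ADAM17 (80.7 to 86.6 CPM) passed in no comparison. RHBDF2, a cofactor of ADAM17, fell by 0.23 in WT against V (log2 fold change -0.23, SE 0.0569, adjusted p = 0.014) and by 0.21 in SA (-0.21, SE 0.0615, adjusted p = 0.0379). APH1A, a subunit of gamma-secretase, rose in SA (0.26, SE 0.064, adjusted p = 0.0111) and in SD (0.25, SE 0.0726, adjusted p = 0.045). NCSTN, which encodes the gamma-secretase subunit nicastrin, rose in SD against V (0.22, SE 0.0633, adjusted p = 0.0436) and against WT (0.31, SE 0.0645, adjusted p = 0.0199). All 6 calls depended on single libraries. RHBDF2 was lost in WT without V1, V2, WT2 or WT3 (adjusted p from 0.0565 to 0.0833) and in SA without V1, V2, V3, SA2 or SA3 (0.0558 to 0.172). APH1A was lost in SA without V1, V3 or SA3 (0.0702 to 0.0816) and in SD without V1, V3, SD2 or SD3 (0.12 to 0.26). NCSTN was lost against V without V1, V2, V3, SD1 or SD2 (0.091 to 0.185) and against WT without WT1, WT3, SD1 or SD2 (0.0609 to 0.152). Other settings also ended calls, namely DESeq2 for RHBDF2 in SA (0.0564), APH1A in SD (0.0946) and NCSTN in SD against V (0.0836), the replicate block for the last pair (0.0713 and 0.0565), a fit of all 12 libraries for RHBDF2 in WT (0.0564) and SA (0.0633), and the test of all genes with at least 1 count for RHBDF2 in SA (0.0532) and NCSTN in SD against V (0.0502).

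Among 21 adaptors and signalling proteins, ELMO1, a partner of DOCK proteins in RAC activation and engulfment, had 4.52, 6.05 and 3.58 CPM in V and between 1.14 and 2.2 CPM in the other 9 libraries. It fell in WT (log2 fold change -1.60, SE 0.328, adjusted p = 0.00247), SA (-1.54, SE 0.327, adjusted p = 0.00299) and SD (-1.49, SE 0.316, adjusted p = 0.00374) against V, at a level near the low end of what was tested. The SD call was lost without V replicate 2 (adjusted p = 0.0544). SOCS3, a feedback inhibitor of cytokine receptors, rose in SA (0.38, SE 0.0809, adjusted p = 0.00313) and SD (0.45, SE 0.0808, adjusted p = 6.38e-04), both kept with each library left out. BCAR1, the focal adhesion adaptor p130Cas, rose in WT (0.26, SE 0.0569, adjusted p = 0.00521), also kept with each library left out. SHC1, an adaptor of receptor tyrosine kinases, rose in SA (0.22, SE 0.047, adjusted p = 0.00351) and SD (0.21, SE 0.0524, adjusted p = 0.0134). It was lost in SA without V1 (0.0527) and in SD without V1, V2 or SD2 (0.0583 to 0.132). GRB2, the adaptor that links receptors to RAS, had mean levels of 125 to 132 CPM and passed in no comparison.

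Of 17 transcription factors linked to AXL, FOSL1, JUN, FOS (components of AP-1) and SNAI2 passed against V. FOSL1 (FRA-1) had 21.6, 24.3 and 21.5 CPM in V, 38.8, 42.3 and 38.0 in WT, 38.8, 38.7 and 38.9 in SA and 29.9, 30.1 and 29.7 in SD. No library of SD overlapped with another line, and the WT and SA libraries overlapped, which is the order seen for AXL. FOSL1 rose against V in WT (0.82, SE 0.093, adjusted p = 4.61e-07), SA (0.79, SE 0.0893, adjusted p = 7.67e-07) and SD (0.42, SE 0.0983, adjusted p = 0.00967). It was lower in SD than in WT (log2 fold change -0.41, SE 0.0876, adjusted p = 0.0231). The SD call against V was lost without V1 (0.0623) or V3 (0.0602), and that against WT without WT1, WT2, WT3, SD1 or SD2 (0.0503 to 0.129).

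JUN rose in WT (0.58, SE 0.107, adjusted p = 7.16e-04) and SA (0.59, SE 0.0903, adjusted p = 6.86e-05) against V and kept both calls with each library left out. Its mean was 28.6 ± 2.72 CPM for V, 33.5 ± 5.55 for SD, 43.0 ± 3.48 for SA and 43.1 ± 7.75 for WT, and SD did not pass against V (0.24, adjusted p = 0.254). FOS rose in SD against V (0.93, SE 0.218, adjusted p = 0.00864), from 3.68 to 3.82 CPM in the V libraries to 6.33 to 8.11 in SD, a call lost without SD3 (0.0567). The EMT factor SNAI2 (SLUG) rose in SA (1.34, SE 0.311, adjusted p = 0.00687) and SD (1.30, SE 0.337, adjusted p = 0.0197) from 1.89 ± 0.567 CPM in V. Its mean was 4.76 ± 1.21 CPM for SA and 4.63 ± 1.89 for SD, and WT, at 3.9 ± 0.19 CPM, did not pass (1.04, adjusted p = 0.0564), and the calls were lost in SA without SA3 (0.057) and in SD without V1, V2 or SD1 (0.08 to 0.165). HIF1A, the hypoxia factor, was higher in SD than in WT (0.22, SE 0.0522, adjusted p = 0.0477), which was lost with DESeq2's size factors (0.0519) and without WT1, WT2, WT3, SD2 or SD3 (0.0534 to 0.283). SP1 and YAP1, which act at GC boxes and with TEAD factors, passed in no comparison, with YAP1 at 0.20 (adjusted p = 0.053) in SD against V.

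**Figure D4:**
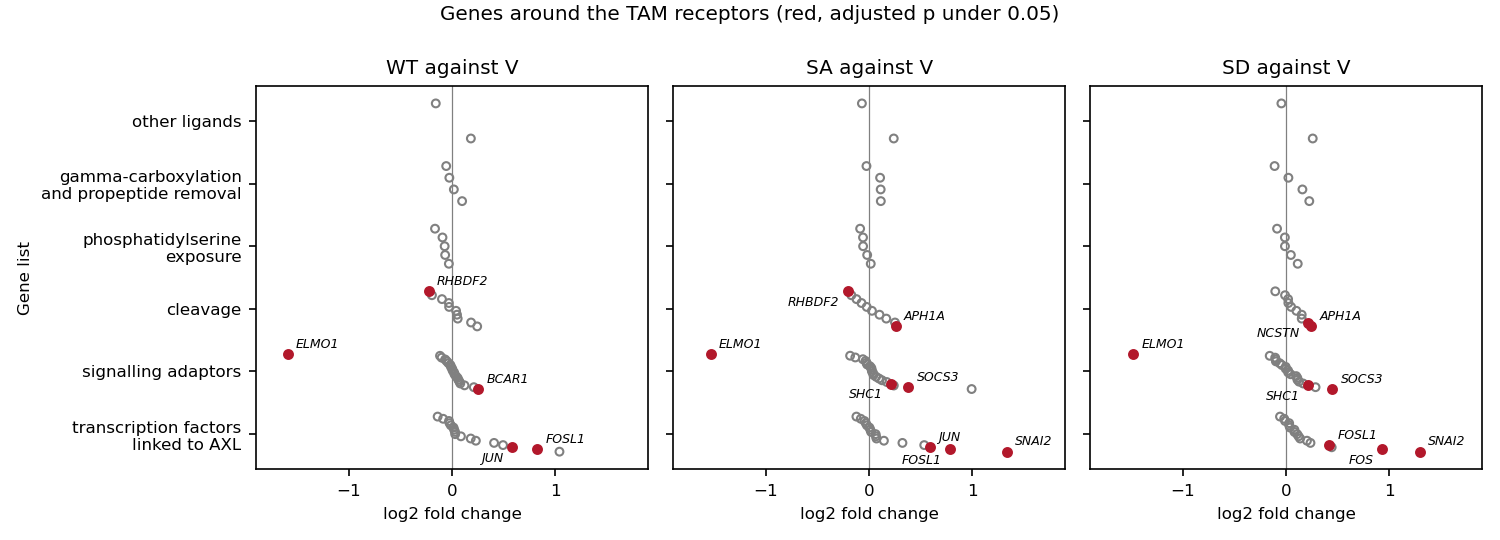
Log2 fold change against V (x axis) of the tested genes of 6 lists around the TAM receptors (y axis) in WT, SA and SD. Each point is a gene, and red points with names have an adjusted p under 0.05. ELMO1 lies at -1.60 to -1.49 in the 3 panels, FOSL1 at 0.42 to 0.82, and the top 3 lists hold no red point.

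The AXL neighbourhood was examined next. Of 14 genes that lay within 100 kb of AXL, 7 were tested in WT against V and none passed in that comparison, beside 5.24% of all tested genes. In SA against V only TGFB1 passed and in SD against V only CYP2S1, beside 7.17% and 5.41% of all tested genes. HNRNPUL1, a ribonucleoprotein gene that begins 730 bases after the end of AXL, had mean levels of 541 ± 17.8, 573 ± 11.4, 587 ± 28.5 and 555 ± 23.9 CPM in the order V, WT, SA, SD. Its log2 fold changes against V (0.08, 0.12 and 0.04) did not pass. CYP2S1, a cytochrome P450 gene known as an AHR target, which ends 11684 bases before AXL, was lower in SD than in V by 0.28 (log2 fold change -0.28, SE 0.074, adjusted p = 0.0244) and so moved in the opposite direction to AXL. That call was lost without V2, V3, SD2 or SD3 (0.0791 to 0.117). TGFB1, which encodes the cytokine TGF-beta 1, rose in SA against V (0.19, SE 0.0509, adjusted p = 0.0167), a call lost without V1 (0.14) or V3 (0.0573). A lncRNA on the opposite strand of AXL (ENSG00000269652, 67 shared exon bases) had 0 counts in all libraries. Elsewhere in the genome, the AHR target CYP1B1 rose against V in WT (0.34, adjusted p = 0.00275), SA (0.38, adjusted p = 4.75e-04) and SD (0.34, adjusted p = 0.00333). TIPARP, another AHR target, rose in WT (0.51, adjusted p = 0.00755) and SA (0.48, adjusted p = 0.0095) and did not pass in SD (0.21, adjusted p = 0.413). TIPARP was lost in WT without V1 (0.103) or WT3 (0.086) and in SA without V1 (0.113) or SA3 (0.0787).

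Over the 12 libraries, the genes whose log2(CPM + 1) was most like that of AXL, among 11786 genes with a mean of at least 5 CPM, were KCNMA1, a potassium channel gene (Pearson r = 0.988), MT2A, a metallothionein gene (0.983), KIAA1549L (0.971), FOSL1 (0.97) and MEAK7 (0.969). Those with the lowest r were ALDH1A1, which makes retinoic acid (-0.986), GPRIN3 (-0.981), DKK1, a secreted WNT inhibitor (-0.977), HMOX1, which degrades haem (-0.964), and TRAM1 (-0.963). The libraries group by line, so r mainly restates the order of the 4 lines and is a description. MT2A went from 68.3 ± 1.99 CPM for V to 97.5 ± 6.43 for SD, 117 ± 3.33 for SA and 116 ± 5.04 for WT. KCNMA1 went in the same order from 61.4 ± 0.717 CPM to 79.1 ± 1.87, 95.1 ± 4.73 and 97.0 ± 5.16. In the other direction, ALDH1A1 went from 4320 ± 68.9 CPM to 3810 ± 77.5, 3440 ± 74.9 and 3400 ± 133, and DKK1 from 308 ± 12.7 to 208 ± 9.2, 184 ± 6.24 and 188 ± 6.69. SD stood between V and the other 2 lines for each of these 4 genes, as it did for AXL.

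**Figure D5:**
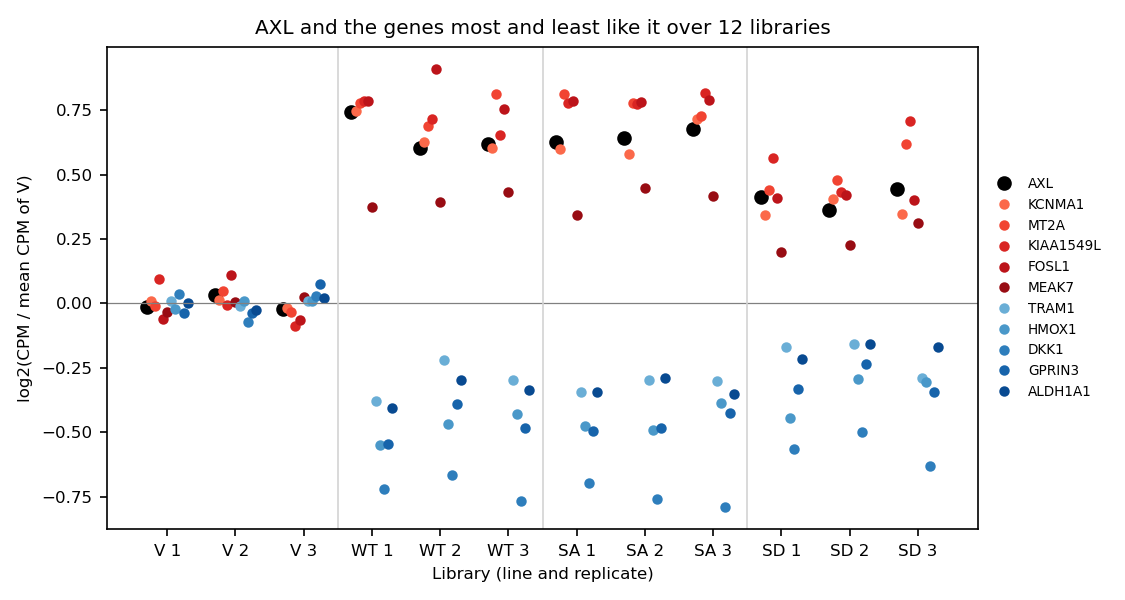
Log2 of CPM over the mean CPM of V (y axis) in each of the 12 libraries (x axis) for AXL (black), the 5 genes most like it (reds) and the 5 least like it (blues). The genes shown were chosen for this pattern. In SD, AXL lies nearer to V than in WT and SA.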

How the data were processed

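RNA-seq of 12 libraries from 4 stable A549 lines was analysed. The authors trimmed reads with Trimmomatic 0.39, aligned them to GRCh38 transcripts with RSEM (version not given in the sources used here) and deposited unnormalized expected counts per gene. RSEM divides reads that fit several genes, and 3.24% to 3.61% of values per library were not whole. A second deposited table holds the authors' own log2 fold changes, p-values and FDR and was not used.

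The rounded counts were fitted with edgeR 4.0.16 (R 4.3.3), separately for the 6 libraries of each comparison, with filterByExpr (minimum count 10, minimum total count 15), TMM normalization (factors 0.9926 to 1.005) and the two-sided quasi-likelihood test. P-values were adjusted by Benjamini-Hochberg over all genes tested, and calls are adjusted p under 0.05. Standard errors were derived from the F statistics. The steps were tested on simulated data, and no library was a copy of another of the same line. Pairs across lines were not checked for copies. RPKM used merged exons of GENCODE v44, in which 88.7% of the genes found there have the deposited coordinates. Promoter windows are those of RefSeq on GRCh38.p14. Figures were drawn with matplotlib 3.10.9.

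The members, gene lists, tests and rule for named genes were chosen with earlier results of these data known. One gene was taken out of the lists afterwards, for a reason unrelated to its values, and is not reported here. The genes named are the 5 members, AHR and its targets CYP1B1, TIPARP and CYP2S1, up to 4 called genes per list and comparison, the 5 most abundant receptor tyrosine kinases and up to 4 called ones, genes within 100 kb of AXL, the 5 genes most and the 5 least like AXL, and antisense genes or pseudogenes of a member. Uncalled list genes, and the AHR target CYP1A1, are named as examples chosen after their values were seen. Alternatives were DESeq2 1.42.0 or its size factors, all genes with at least 1 count, genes with at least 10 counts in every library, a single fit of the 12 libraries, a block for the replicate number, and each library left out.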

Additional observations from a re-analysis of the deposited data

How the results depend on the processing

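AXL was chosen for its differences between these libraries, so its values and calls under the alternatives are a description and no sign of stability. With each library left out, its log2 fold change against V lay between 0.61 and 0.68 in WT, 0.64 and 0.67 in SA and 0.39 and 0.43 in SD. In SD against WT, AXL lay between -0.28 and -0.20 with each library left out and lost its call in 4 of 6 cases. In SD against SA, AXL became called with DESeq2 (-0.24), with all genes with at least 1 count (-0.25), with all 12 libraries in one fit (-0.24) and with the replicate block (-0.24). In WT against SA its sign turned with at least 1 count (-0.000346) and, with each library left out, it lay between -0.037 and 0.034. Uncalled differences also turned with a library left out. They lay between -0.10 and 0.073 for PROS1 in WT against V, between -0.12 and 0.014 for GAS6 in SA against V, -0.10 and 0.029 in SD against V and -0.038 and 0.057 in SD against SA, between -0.10 and 0.11 for TYRO3 in SD against WT and -0.19 and 0.018 in SD against SA, and between -0.015 and 0.16 for MERTK in SD against WT. The cause was not tested.

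With each library left out, the genes called numbered 434 to 720 in WT against V, 621 to 1195 in SA against V, 502 to 856 in SD against V, 45 to 145 in SD against WT, 11 to 56 for SD and SA and 2 to 25 for WT and SA, and the list genes called 5 to 8 in SA against V, 3 to 7 in SD against V and 0 to 2 in SD against WT. With at least 1 count, 252 genes were called in SD against WT (105 otherwise), 153 for SD and SA (33) and 103 for WT and SA (12), with 3 list genes in SD against SA (0). In one fit of all 12 libraries, 5 genes were called in WT against SA and 1 list gene in SD against SA. Deviations of same-numbered libraries correlated between -0.065 and 0.0842 in the comparisons with V. Among WT, SA and SD these correlations were weak but all positive (0.0326 to 0.114), beside -0.0924 to 0.0257 for different numbers. Deviations were taken from the mean of the 3 libraries of a line. Positive values for same numbers therefore push those for different numbers down, so the latter are no separate baseline. The main fits did not take the replicate numbers as pairs, and whether same-numbered libraries share a batch was not tested. With the replicate block, 507 genes were called in WT against V (774 without), 245 in SD against WT, 165 for SD and SA and 25 for WT and SA. The list genes called were then 5 (3 without) for SD and WT and 4 for SD and SA. MERTK, at 3.41 to 5.52 CPM, is the member whose differences depth limits most.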

Other observations

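Other receptor tyrosine kinases changed as well. Of the 58 listed, 29 were tested in WT against V, where 2 rose and 3 fell, AXL included. In SA against V 2 of 30 rose and 3 fell, in SD against V 1 of 30 rose and 3 fell, and in SD against WT 1 of 30 rose and 1 fell. The share of all tested genes that passed was 5.24%, 7.17%, 5.41% and 0.708%. FGFR1, a fibroblast growth factor receptor, had 254 to 258 CPM in the V libraries and 175 to 194 CPM in the other 9. It fell against V in WT (log2 fold change -0.44, adjusted p = 1.15e-07), SA (-0.50, 1.15e-07) and SD (-0.51, 3.43e-07). NTRK3, a neurotrophin receptor, fell in WT (-0.49, 2.88e-08), SA (-0.37, 4.82e-05) and SD (-0.21, 0.0288) and was higher in SD than in WT (0.27, 0.0255). The last pair of NTRK3 calls was lost against V without V1, V2, V3, SD2 or SD3 (0.055 to 0.148) and against WT without WT1, WT2, WT3, SD1 or SD2 (0.0549 to 0.165). MET rose in WT (0.27, 1.84e-04) and SA (0.16, 0.0364), and the SA call was lost without V1, V2, SA2 or SA3 (0.088 to 0.148). IGF1R fell in WT (-0.19, 0.00408). FGFR4 fell in SA (-0.30, 0.0372) and SD (-0.40, 0.00948) and was lost in SA without V2, V3, SA2 or SA3 (0.0737 to 0.177) or with DESeq2 (0.097) and in SD without V2 (0.0845). All p-values are adjusted p from edgeR over all genes tested. These comparisons share the V libraries.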
